A study of Sus scrofa with 15 samples.

Results

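The genes of the nuclear pore, of the importins and exportins that carry cargo through it, and of the nuclear lamina and inner nuclear membrane were examined in pig oocytes. Members were the genes whose symbol, looked up from the pig Ensembl identifier, belongs to the NUP, KPN, IPO or XPO families or is RANBP2, TPR, NDC1, POM121, RAN, LMNA, LMNB1, LMNB2, LBR, EMD or TMPO. Of the 22516 genes of the gene table, 52 were members, and 49 of these passed the filter on low counts. NUP62, NUP62CL and IPO4 did not pass it. Of the 11 symbols named singly, 9 were matched, while RAN and POM121 had no matched identifier and are not analysed here. The rule uses no measured value.

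The RNAseq libraries were made from polyadenylated RNA of pig oocytes, with 5 libraries for each of 3 groups and 15 oocytes pooled per library. Germinal vesicle (GV) oocytes, arrested in meiotic prophase with an intact nuclear envelope, were stripped of cumulus cells straight from fresh follicles and were not cultured. MII and ‘damaged’ oocytes both came from cumulus-oocyte complexes matured in vitro for 44 h in Medium 199 that held the gonadotrophins PMSG and HCG, EGF, insulin, cysteamine, pyruvate, penicillin, streptomycin and follicular fluid, none of which the GV oocytes received in culture. Hyaluronidase removed the cumulus cells in all 3 groups. An oocyte with a visible first polar body was classed as MII and an oocyte without one as ‘damaged’. The ovaries came from sows, and no genotype is given. Culture, its hormones and additives, and developmental stage cannot be told apart in the comparison with GV oocytes, and the ‘damaged’ group is defined by the missing polar body alone. The libraries held 6400412 to 23568633 estimated counts. GV library 3, the shallowest, was left out, which leaves 4 GV, 5 MII and 5 ‘damaged’ libraries. Of the 15 columns of the deposited gene table, 7 held totals that fit a library with another label, so gene counts were computed from the transcript file of each library. MII and ‘damaged’ oocytes together are called MIX (n = 10). The study describes 5 independent collections that each gave oocytes of every group. The 10 MIX libraries may therefore not be 10 independent units, although the main fit treats them as such.

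Positions are on Sscrofa11.1 as RefSeq gives them. Levels are given as CPM, gene counts divided by library sizes that were first scaled by TMM factors (trimmed mean of M values, a scaling that assumes most genes do not change). A gene was called up- or downregulated in limma-voom at a false discovery rate (FDR, over all 13229 genes tested) under 0.01, and a DEG also had an absolute log2 fold change over 2. Upregulated thus means a higher level relative to other polyadenylated RNA. The paper states that transcription stops when oocytes resume meiosis. New transcription, loss of RNA and poly(A) tail length were not measured and cannot be told apart in these levels. Oocyte identity was checked first. Of 12 oocyte markers, 11 had a row. Their summed level was 9850 to 11543 CPM in GV, 4726 to 7195 CPM in MII and 5423 to 7136 CPM in ‘damaged’ libraries. In MIX against GV oocytes 7 of the 11 were downregulated (background 37.0%) and 0 upregulated (background 30.0%). ZP3 (log2 fold change −4.31) and GDF9 (−2.65) were among the 7, while ZP2 (−0.04) and BMP15 (−0.16) were not called. The 9 cumulus and granulosa markers with a row, of 14 listed, summed to 1.4995 to 6.71 CPM in GV, 0.720 to 5.84 CPM in MII and 0.540 to 1.87 CPM in ‘damaged’ libraries, so these markers were near 0 in every group. Since each library pools oocytes, a change in some oocytes and a smaller change in all of them, or fewer cells of a type and less RNA per cell, cannot be told apart.

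The nuclear pore complex is a ring-shaped channel through the nuclear envelope built from many copies of proteins called nucleoporins. A Y-shaped scaffold complex coats its outer faces, an inner ring and membrane-spanning nucleoporins hold it in the envelope, and nucleoporins rich in phenylalanine-glycine repeats fill the channel. Importins and exportins bind cargo and pass through this channel under the control of the small GTPase Ran, and lamins form the meshwork beneath the inner nuclear membrane. At germinal vesicle breakdown the envelope, its pores and the lamina are taken apart, and they are rebuilt after fertilization, when the embryo first relies on proteins and mRNAs stored in the egg.

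A majority of the tested members were upregulated in MIX oocytes with TMM scaling. Among them were 17 of 24 tested nucleoporins and 11 of 25 importin, exportin and lamina genes. The 17 included all 6 Y complex members and all 4 cytoplasmic face members that the symbol rule takes in. Compared with GV oocytes, 28 of the 49 tested members were upregulated, against a background of 30.0% of all genes tested, and 12 were downregulated, against a background of 37.0%. The remaining 9 were not called. With only the 8 libraries whose gene table column matched their label, 23 members were upregulated and 11 downregulated. The members had a median log2 fold change of 0.71, beside −0.16 over all genes tested. DEGs numbered 8 upregulated members, against 4.27% of all genes, and 2 downregulated members, against 16.8%. In 23 members each MIX library lay above each GV library (background 24.3%) and in 11 each MIX library lay below (background 29.4%). The summed level of all 52 members was 5925 ± 441 CPM in GV (SD, n = 4), 14309 ± 1154 CPM in MII (SD, n = 5) and 14431 ± 910 CPM in ‘damaged’ oocytes (SD, n = 5). A few genes carry much of this sum. KPNA7, KPNA2 and NUP35 averaged 1267, 1287 and 440 CPM in GV and 2915, 1830 and 1740 CPM in MIX oocytes.

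The direction of a change depends on the scaling. With TMM 30.0% of all genes tested were called higher and 37.0% lower, so its assumption that most genes do not change was not met by these calls. Which scaling is closer to the RNA content of an oocyte was not tested. TMM factors ranged from 1.35 to 1.73 over the GV and from 0.794 to 0.922 over the MIX libraries. With library sizes alone, the median over all tested genes moved from −0.16 to −1.05, with 11.9% of genes called higher and 60% called lower, and the members split into 15 upregulated and 23 downregulated with a median of −0.18. The 15 members were also upregulated with TMM, and all 12 members downregulated with TMM were downregulated without it. In 6 members upregulated with TMM the sign turned negative without it (NUP85, NUP155, NUP98, KPNA2, IPO8 and LBR), and KPNA2 and IPO8 were then called lower. The 9 members not called with TMM were all called lower without it. All changes below are therefore relative to the TMM-scaled bulk of genes. That bulk also depends on the genes kept. With a filter of 10 CPM in at least 4 libraries (7465 genes), TMM factors were computed anew. The log2 fold change then moved down in KPNA2 (0.53 to 0.20), LBR (0.74 to 0.42), TMPO (0.26 to −0.06), NUP153 (−0.26 to −0.58) and NUP188 (−0.63 to −0.96). These genes are given because their call or sign changed, and all of them moved down by a similar amount. Changes under this filter are therefore also changes of scaling.

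**Figure D1:**
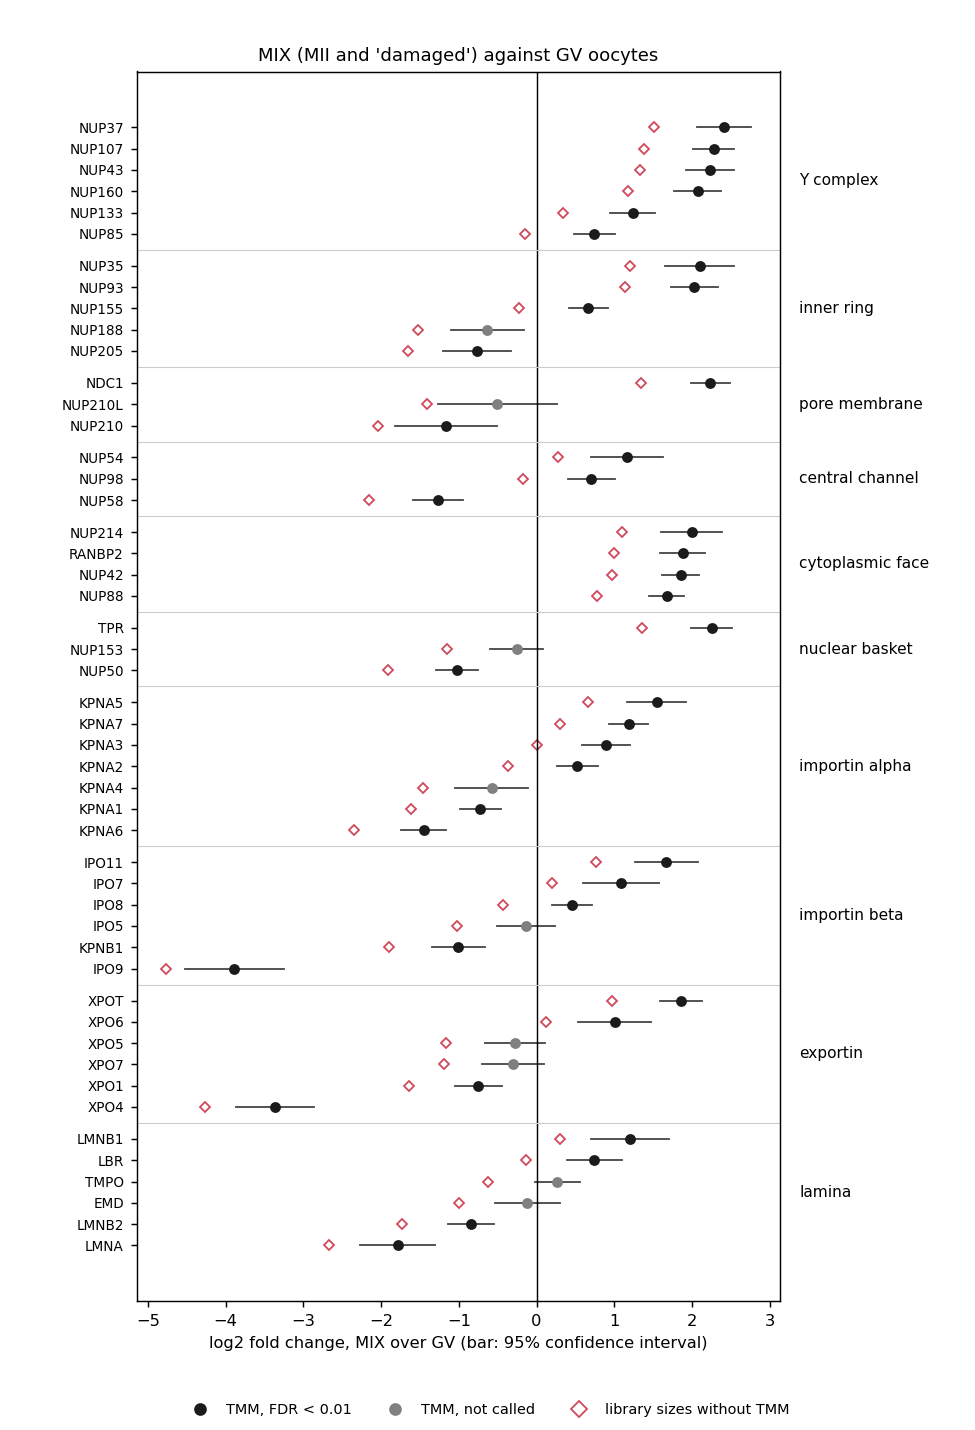
Log2 fold change of MIX over GV oocytes for the 49 tested members by role, with circles for TMM scaling (black where FDR is under 0.01, grey where not called), bars for 95% confidence intervals and open diamonds for library sizes without TMM factors. All 6 Y complex and all 4 cytoplasmic face members lie above 0 with TMM, while without it NUP85 of the Y complex lies at −0.14 and NUP155, NUP98, KPNA2, IPO8 and LBR also cross 0.

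Among the 24 tested nucleoporins, 17 were upregulated, 4 were downregulated and 3 were not called, with a median log2 fold change of 1.46. With library sizes alone 12 were higher and 7 lower. The Y complex, which builds the outer scaffold and is needed to start pore assembly on chromatin, was upregulated in 6 of 6 members with TMM, while without TMM 4 stayed upregulated and NUP133 (0.34) and NUP85 (−0.14, sign reversed) were not called. The 6 members had a median log2 fold change of 2.15, and their summed level was 635 to 850 CPM in GV, 2473 to 3202 CPM in MII and 2374 to 2986 CPM in ‘damaged’ libraries.

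NUP37 (ENSSSCG00000000860, chr5:82091439-82144463), a WD-repeat subunit of the Y complex, had the largest rise of the group. It was at 272, 174, 205 and 116 CPM in GV libraries 1, 2, 4 and 5, at 999, 1186, 909.8, 1042 and 898 CPM in the MII libraries and at 1095, 1039, 849, 1025 and 745 CPM in the ‘damaged’ libraries. The lowest of the 10 MIX libraries was above the highest GV library, and the means were 192 ± 65.1 CPM in GV (SD, n = 4) and 979 ± 129 CPM in MIX oocytes (SD, n = 10) (log2 fold change 2.41, SE 0.17, FDR = 1.00e-10). NUP107 (2.28), NUP43 (2.23) and NUP160 (2.07) also passed the DEG threshold in log2 fold change. NUP133 (log2 fold change 1.24) did not reach it. NUP85 (ENSSSCG00000017207, chr12:6072731-6103972), which joins the short arm of the Y, had the smallest rise. It was at 122, 139, 146 and 137 CPM in GV libraries 1, 2, 4 and 5, at 198, 247, 223, 243 and 213 CPM in the MII libraries and at 169.6, 221, 252, 278 and 248 CPM in the ‘damaged’ libraries. These groups did not overlap, but the difference was small (log2 fold change 0.75, SE 0.12, FDR = 1.79e-05), and without TMM it was −0.14.

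The inner ring links the scaffold to the membrane and anchors the channel nucleoporins. Of its 5 members NUP35, NUP93 and NUP155 were upregulated, although NUP155 was at −0.22 without TMM, NUP205 was downregulated and NUP188 was not called. NUP35 (ENSSSCG00000028949, chr15:88587753-88616310), which contacts the pore membrane, was at 723, 331, 473 and 231 CPM in GV libraries 1, 2, 4 and 5, at 1311, 1557, 1814, 2127 and 1652 CPM in the MII libraries and at 1732, 2027, 2187, 1608 and 1382 CPM in the ‘damaged’ libraries. GV library 1 was the highest GV library and library 5 the lowest, and the whole GV range lay under each MIX library (log2 fold change 2.10, SE 0.21, FDR = 2.09e-08). Its partner NUP93 had a log2 fold change of 2.03 (FDR = 1.66e-10).

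NUP205 (ENSSSCG00000030386, chr18:13674301-13777773), a large adaptor subunit that pairs with NUP93, moved the other way. It was at 34.1, 36.9, 38.4 and 33.2 CPM in GV libraries 1, 2, 4 and 5, at 20.5, 24.7, 32.0, 25.4 and 13.8 CPM in the MII libraries and at 11.4, 23.9, 14.5, 25.0 and 28.9 CPM in the ‘damaged’ libraries. The 10 MIX libraries were all below the GV libraries, with MII library 3 the nearest (log2 fold change −0.76, SE 0.21, FDR = 0.00258). Without GV library 4 its FDR rose to 0.011 (log2 fold change −0.72). NUP188 (ENSSSCG00000005667, chr1:269259496-269312872), the paralogous adaptor of the inner ring, was at 7.60 to 15.8 CPM across GV libraries and 4.81 to 12.5 CPM across MIX libraries, and MII library 3 was far above the other MII libraries (log2 fold change −0.63, SE 0.23, FDR = 0.0158). It was called lower without MII library 3 (−0.75, FDR = 0.00227) and without GV library 1 (−0.75, FDR = 0.00723). The fall was larger with the filter of 10 CPM (−0.96, FDR = 8.44e-04) and without TMM (−1.52, FDR = 2.98e-05).

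Of the 3 pore membrane members, which span the nuclear envelope, NDC1 was upregulated under both scalings and NUP210 downregulated under both, while NUP210L (log2 fold change −0.50) was not called with TMM. NDC1 (ENSSSCG00000028748, chr6:158458597-158515057), which tethers the complex to the membrane, was at 182, 145, 137 and 124 CPM in GV libraries 1, 2, 4 and 5, at 682, 798, 574, 780.2 and 697 CPM in the MII libraries and at 701, 723, 714, 624 and 586 CPM in the ‘damaged’ libraries. No library of either group came near the other (log2 fold change 2.23, SE 0.12, FDR = 3.59e-12). NUP210 (ENSSSCG00000011610, chr13:70917464-71007273), a membrane glycoprotein, was scarce, at 1.02 to 3.02 CPM across GV libraries and 0.325 to 1.31 CPM across MIX libraries. Its ranges overlapped (log2 fold change −1.16, SE 0.32, FDR = 0.00248), and without GV library 5 the FDR was 0.0175 (log2 fold change −0.92).

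In the central channel 3 of 5 members were tested, since NUP62 (0.204 to 0.589 CPM across GV libraries and 0.0751 to 0.464 CPM across MIX libraries) and NUP62CL (0.0510 CPM at most in GV and 0.199 CPM at most in MIX) were under the filter. NUP54 (ENSSSCG00000008979, chr8:71792153-71833180), a repeat nucleoporin of the channel, was at 179.9, 123, 162 and 115 CPM in GV libraries 1, 2, 4 and 5, at 236, 326, 619.9, 295 and 375 CPM in the MII libraries and at 225, 269.7, 462, 348 and 211 CPM in the ‘damaged’ libraries. All MIX libraries were above all GV libraries, with MII library 3 the highest (log2 fold change 1.17, SE 0.22, FDR = 8.71e-05). Without TMM it was 0.27 and not called. NUP98, which has a docking site for mRNA export factors, had a log2 fold change of 0.71 with TMM and −0.18 without. NUP58 (ENSSSCG00000035318, chr11:3225185-3266163), the channel partner of NUP54 and NUP62, was at 51.8, 61.3, 58.1 and 80.1 CPM in GV libraries 1, 2, 4 and 5, at 29.6, 30.3, 18.2, 26.6 and 21.5 CPM in the MII libraries and at 29.3, 22.8, 22.2, 26.9 and 35.3 CPM in the ‘damaged’ libraries. It was downregulated with no overlap (log2 fold change −1.27, SE 0.15, FDR = 3.43e-07) and stayed lower without TMM (−2.16).

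All 4 cytoplasmic face members, which help to release exported cargo and mRNA, were upregulated under both scalings. Their median log2 fold change was 1.87 with TMM and 0.98 without. These 4 are only the genes that the symbol rule takes in. Of the further genes listed below, 13 were upregulated and 15 downregulated with TMM. The downregulated ones include GLE1 (−0.69), DDX19A (−0.57), DDX19B (−0.96) and AAAS (−4.07). NUP214 (ENSSSCG00000005711, chr1:271103838-271210292), which holds the export machinery at the cytoplasmic side, was at 219, 239, 260.4 and 395 CPM in GV libraries 1, 2, 4 and 5, at 1016, 1220.1, 1499, 1047 and 938 CPM in the MII libraries and at 708, 1039.8, 842, 1368 and 1455 CPM in the ‘damaged’ libraries. No MIX library fell within the GV range, in which library 5 was the highest (log2 fold change 1.999, SE 0.19, FDR = 8.36e-09). NUP88 (ENSSSCG00000033706, chr12:51562455-51603095), its binding partner, had the smallest rise of the group. It was at 182, 142, 179 and 176 CPM in GV libraries 1, 2, 4 and 5, at 547, 585, 501, 575 and 456 CPM in the MII libraries and at 496, 549.7, 544, 614 and 555 CPM in the ‘damaged’ libraries, again without overlap (log2 fold change 1.68, SE 0.11, FDR = 3.70e-11). RANBP2, the SUMO ligase of the cytoplasmic filaments, had a log2 fold change of 1.88, and NUP42 had one of 1.85.

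The nuclear basket, which projects into the nucleoplasm, was mixed. TPR (ENSSSCG00000015576, chr9:127481678-127540393), the coiled-coil protein that makes up the basket, was at 52.7, 35.3, 41.7 and 39.7 CPM in GV libraries 1, 2, 4 and 5, at 198, 198, 159.7, 209 and 249 CPM in the MII libraries and at 201, 197, 192, 191 and 210.0 CPM in the ‘damaged’ libraries. It was upregulated with no overlap (log2 fold change 2.25, SE 0.13, FDR = 6.45e-12). NUP50 (ENSSSCG00000000019, chr5:4194308-4219410), which helps importins to release their cargo, was at 72.6, 84.7, 82.2 and 93.3 CPM in GV libraries 1, 2, 4 and 5, at 49.8, 41.8, 35.3, 42.0 and 37.5 CPM in the MII libraries and at 40.0, 38.2, 31.0, 47.6 and 49.4 CPM in the ‘damaged’ libraries. It was downregulated with no overlap (log2 fold change −1.02, SE 0.13, FDR = 5.86e-07). NUP153 (ENSSSCG00000026034, chr7:13393542-13466577), which ties the basket to the pore, was at 89.2 to 102 CPM across GV libraries and 51.2 to 108 CPM across MIX libraries, and the ranges overlapped (log2 fold change −0.26, SE 0.16, FDR = 0.163). It was called lower with library sizes alone (−1.15) and when only genes over 10 CPM in at least 4 libraries were kept (−0.58, FDR = 0.0032).

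**Figure D2:**
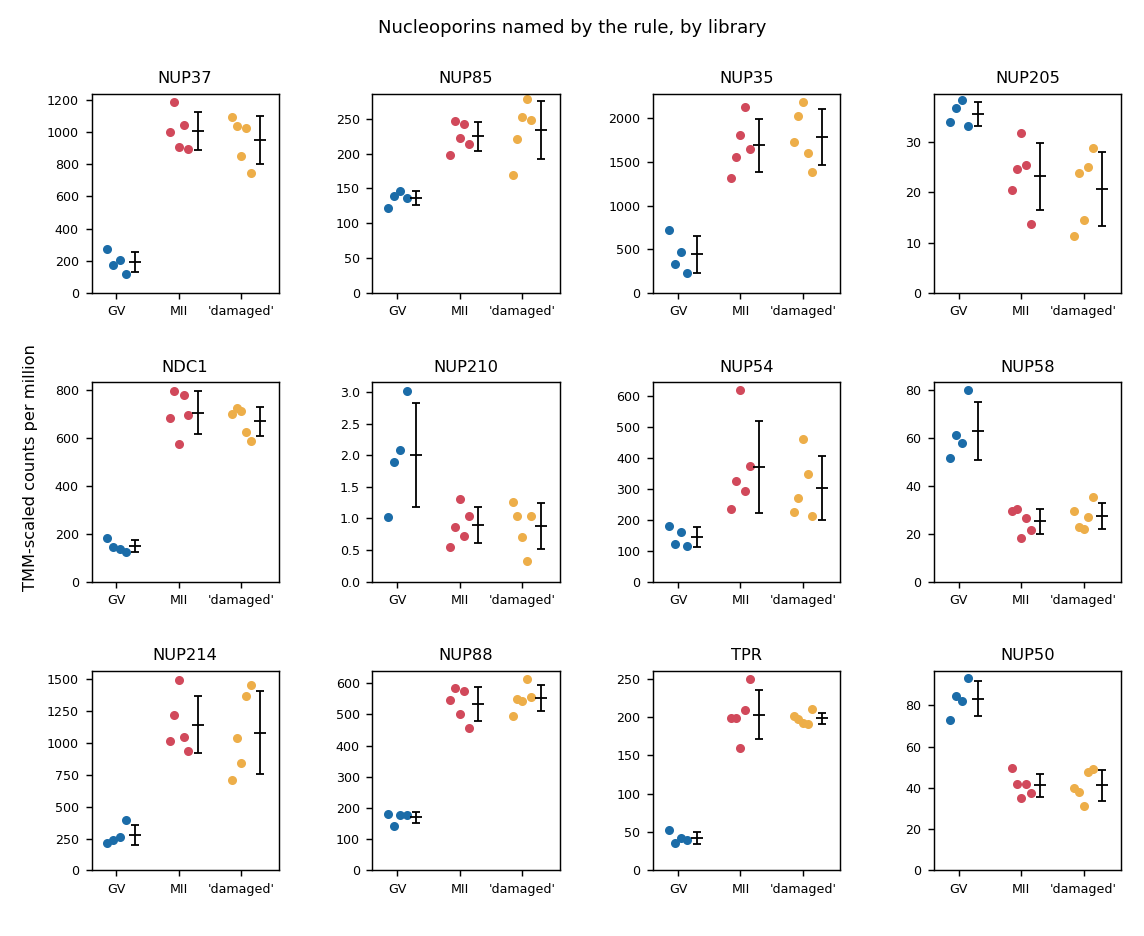
TMM-scaled CPM of 12 nucleoporins in each library, with a point per library (4 GV, 5 MII, 5 ‘damaged’) and the mean ± SD beside the points, each axis starting at 0. The GV and MIX libraries are apart in every panel but NUP210, while MII and ‘damaged’ libraries overlap in each. The rise of NUP85 (0.75 with TMM) turns to −0.14 without TMM.

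Importin alpha proteins recognise the classical nuclear localization signal and hand the cargo to importin beta. Compared per length within a group, in Kallisto's TPM (counts divided by transcript length and scaled to 1 total), KPNA7 and KPNA2 were the 2 most abundant members in each group. KPNA7, the importin alpha of oocytes and early embryos, averaged 1812 ± 418 TPM in GV, 1839.7 ± 238 TPM in MII and 2206 ± 387 TPM in ‘damaged’ oocytes (SD, n = 4, 5 and 5). KPNA2 averaged 1374 ± 76.6 TPM in GV, 954 ± 118 TPM in MII and 1004 ± 136 TPM in ‘damaged’ oocytes. Their library ranges overlapped in GV (1390.3 to 2382 against 1278 to 1437 TPM) but not in MII or ‘damaged’ oocytes. NUP35 ranked 3 in each group, at 438 ± 144 TPM in GV, and its leading transcript has an effective length of only 328 bases, which raises a value per length. The next level in GV was NUP88 at 154 ± 26.3 TPM. TPM levels were not compared between groups, since they are not TMM-scaled.

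Of the 7 importin alpha genes KPNA2, KPNA3, KPNA5 and KPNA7 were upregulated, KPNA1 and KPNA6 were downregulated and KPNA4 was not called. The rises were sensitive to scaling, as without TMM only KPNA5 stayed upregulated (0.66), KPNA7 (0.30) and KPNA3 (near 0) were not called, and KPNA2 was downregulated (−0.37). KPNA7 (ENSSSCG00000007607, chr3:6167382-6201282) was at 1209.9, 1220.4, 1222 and 1417 CPM in GV libraries 1, 2, 4 and 5, at 2702, 3201, 2022, 3127 and 2547 CPM in the MII libraries and at 2680.2, 2937, 3033, 3596 and 3300.0 CPM in the ‘damaged’ libraries. Its GV libraries were tight apart from library 5 and did not overlap the MIX libraries (log2 fold change 1.19, SE 0.12, FDR = 2.59e-08).

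KPNA2 (ENSSSCG00000029005, chr12:14283092-14296749) was at 1619, 1179, 1365 and 986 CPM in GV libraries 1, 2, 4 and 5, at 1582, 1744, 1864, 2084 and 1791 CPM in the MII libraries and at 1708, 1897, 2229, 1728 and 1669.6 CPM in the ‘damaged’ libraries. GV library 1 reached into the MIX range (log2 fold change 0.53, SE 0.12, FDR = 7.85e-04), and with the filter of 10 CPM the gene was not called (0.20, FDR = 0.134). KPNA3 (ENSSSCG00000024125, chr11:17948210-18033818) was at 154 to 181 CPM across GV libraries and 226 to 413 CPM across MIX libraries and did not overlap (log2 fold change 0.89, SE 0.15, FDR = 1.80e-05). KPNA5 (ENSSSCG00000004262, chr1:44900495-44941219) was at 3.39, 3.33, 3.58 and 3.36 CPM in GV libraries 1, 2, 4 and 5, at 12.7, 8.20, 9.76, 12.6 and 11.5 CPM in the MII libraries and at 9.48, 11.3, 11.08, 7.53 and 7.76 CPM in the ‘damaged’ libraries. The 4 GV libraries were close together and all below MIX (log2 fold change 1.55, SE 0.18, FDR = 1.88e-07).

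KPNA6 (ENSSSCG00000034017, chr6:88611128-88656281) was at 52.1, 57.1, 54.2 and 68.2 CPM in GV libraries 1, 2, 4 and 5, at 16.6, 18.3, 27.4, 21.4 and 19.4 CPM in the MII libraries and at 21.7, 22.4, 27.2, 20.9 and 17.4 CPM in the ‘damaged’ libraries. Each MIX library was below each GV library (log2 fold change −1.45, SE 0.14, FDR = 8.76e-09). KPNA1 (ENSSSCG00000028475, chr13:138045083-138100830) was at 15.7 to 17.6 CPM across GV libraries and 8.77 to 13.4 CPM across MIX libraries, also without overlap (log2 fold change −0.72, SE 0.13, FDR = 4.18e-05). KPNA4 (ENSSSCG00000031077, chr13:100185081-100253077) was at 5.43 to 6.33 CPM across GV libraries and 2.19 to 8.02 CPM across MIX libraries, with ‘damaged’ library 2 above all GV libraries (log2 fold change −0.58, SE 0.22, FDR = 0.0252). Without ‘damaged’ library 2 it was called lower (−0.68, FDR = 0.00486), as it was without TMM.

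The importin beta family brings cargo through the pore, either with importin alpha or alone. Of 6 tested members IPO11, IPO7 and IPO8 were upregulated, although IPO8 was downregulated without TMM (−0.44), KPNB1 and IPO9 were downregulated under both scalings and IPO5 was not called. IPO11 (ENSSSCG00000016938, chr16:41121123-41335373), an importer of ubiquitin-conjugating enzymes, was at 22.4, 13.7, 19.2 and 9.22 CPM in GV libraries 1, 2, 4 and 5, at 47.2, 52.5, 39.0, 60.6 and 43.1 CPM in the MII libraries and at 52.0, 52.5, 50.4, 53.1 and 36.8 CPM in the ‘damaged’ libraries. The 2 groups were apart, with ‘damaged’ library 5 the lowest MIX library (log2 fold change 1.67, SE 0.19, FDR = 1.75e-07). IPO9 (ENSSSCG00000039843, chr10:24110126-24150294), which imports histones and actin, had the largest fall of the 49 tested members. It was at 5.05, 9.40, 7.29 and 11.2 CPM in GV libraries 1, 2, 4 and 5, at 1.12, 0.300, 0.381, 0.419 and 0.798 CPM in the MII libraries and at 0.451, 0.601, 0.240, 0.443 and 0.927 CPM in the ‘damaged’ libraries. The highest MIX library, MII library 1, was at 1.12 CPM (log2 fold change −3.89, SE 0.30, FDR = 6.17e-10), and the 3.95 to 13.8 counts per MIX library make that level imprecise. KPNB1, importin beta 1 itself, had a log2 fold change of −1.01. IPO4 was under the filter and has no fitted fold change, at 0.408 to 1.39 CPM across GV libraries and 0 to 0.150 CPM across MIX libraries, without overlap.

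Exportins carry cargo out of the nucleus. Of 6 members XPOT and XPO6 were upregulated, XPO1 and XPO4 were downregulated, and XPO5 (−0.28) and XPO7 (−0.30) were not called. Without TMM, XPO6 (0.12) was not called and XPO5 and XPO7 were lower. XPOT (ENSSSCG00000000466, chr5:28678971-28875336), the tRNA exporter, was at 63.6, 57.1, 60.5 and 53.8 CPM in GV libraries 1, 2, 4 and 5, at 254, 246, 199, 249 and 167 CPM in the MII libraries and at 216, 233, 203, 212 and 170.4 CPM in the ‘damaged’ libraries. It was upregulated with no overlap (log2 fold change 1.86, SE 0.13, FDR = 1.07e-10). XPO4 (ENSSSCG00000009276, chr11:1104270-1208144), which exports the translation factor eIF5A, was at 9.82, 12.2, 11.97 and 12.2 CPM in GV libraries 1, 2, 4 and 5, at 1.12, 1.57, 2.37, 1.10 and 0.993 CPM in the MII libraries and at 0.375, 1.19, 0.663, 0.824 and 2.06 CPM in the ‘damaged’ libraries. Its GV libraries were all above every MIX library (log2 fold change −3.37, SE 0.24, FDR = 1.73e-10), which had 4.93 to 30.6 counts each. XPO1, the main protein exporter, had a log2 fold change of −0.75 (FDR = 1.15e-04).

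The lamina group split evenly, with LMNB1 and LBR upregulated, LMNA and LMNB2 downregulated, and TMPO and EMD not called. Its summed level was 95.1 to 133 CPM in GV, 98.8 to 138 CPM in MII and 118 to 142 CPM in ‘damaged’ libraries. Without TMM no lamina gene was upregulated, as LMNB1 was at 0.31 and LBR, sign reversed, at −0.14, and 4 were lower. LMNA (ENSSSCG00000006496, chr4:93899019-93927255), which encodes the A-type lamins, was at 13.0, 18.8, 19.9 and 26.0 CPM in GV libraries 1, 2, 4 and 5, at 6.65, 5.93, 6.26, 4.47 and 5.22 CPM in the MII libraries and at 2.81, 4.64, 4.25, 7.63 and 10.03 CPM in the ‘damaged’ libraries. All MIX libraries were below all GV libraries (log2 fold change −1.79, SE 0.23, FDR = 7.03e-07). LMNB2 (ENSSSCG00000026784, chr2:76125932-76146564), a B-type lamin, was at 13.9 to 21.0 CPM across GV libraries and 8.60 to 13.5 CPM across MIX libraries and also did not overlap (log2 fold change −0.84, SE 0.14, FDR = 2.08e-05).

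LMNB1 (ENSSSCG00000014248, chr2:129807228-129862211), the other B-type lamin, was at 8.07, 6.66, 4.33 and 9.56 CPM in GV libraries 1, 2, 4 and 5, at 14.1, 15.5, 15.6, 20.05 and 11.3 CPM in the MII libraries and at 12.7, 20.2, 10.1, 21.3 and 22.9 CPM in the ‘damaged’ libraries. Its groups did not overlap, although ‘damaged’ library 3 was close to GV library 5 (log2 fold change 1.20, SE 0.24, FDR = 1.56e-04). LBR (ENSSSCG00000032397, chr10:13389896-13416831), which binds B-type lamins and chromatin, was at 12.1, 20.4, 27.1 and 20.9 CPM in GV libraries 1, 2, 4 and 5, at 33.1, 27.0, 23.6, 37.6 and 28.7 CPM in the MII libraries and at 34.9, 35.3, 35.9, 35.0 and 36.5 CPM in the ‘damaged’ libraries. GV library 4 lay within the MII range (log2 fold change 0.74, SE 0.17, FDR = 5.38e-04), and the call was lost with the filter of 10 CPM (0.42, FDR = 0.0296). TMPO (ENSSSCG00000038487, chr5:85317648-85346528), the gene of the LAP2 proteins, was at 35.8 to 43.4 CPM across GV libraries and 35.6 to 57.2 CPM across MIX libraries (log2 fold change 0.26, SE 0.14, FDR = 0.0921), and its sign turned under the filter of 10 CPM (−0.06) and without TMM (−0.63, called lower). EMD (ENSSSCG00000037777, chrX:124883047-124885429), which encodes emerin, was at 8.11 to 12.5 CPM across GV libraries and 4.12 to 13.3 CPM across MIX libraries (log2 fold change −0.12, SE 0.20, FDR = 0.597), and it was called lower without TMM (−1.002, FDR = 2.77e-04).

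**Figure D3:**
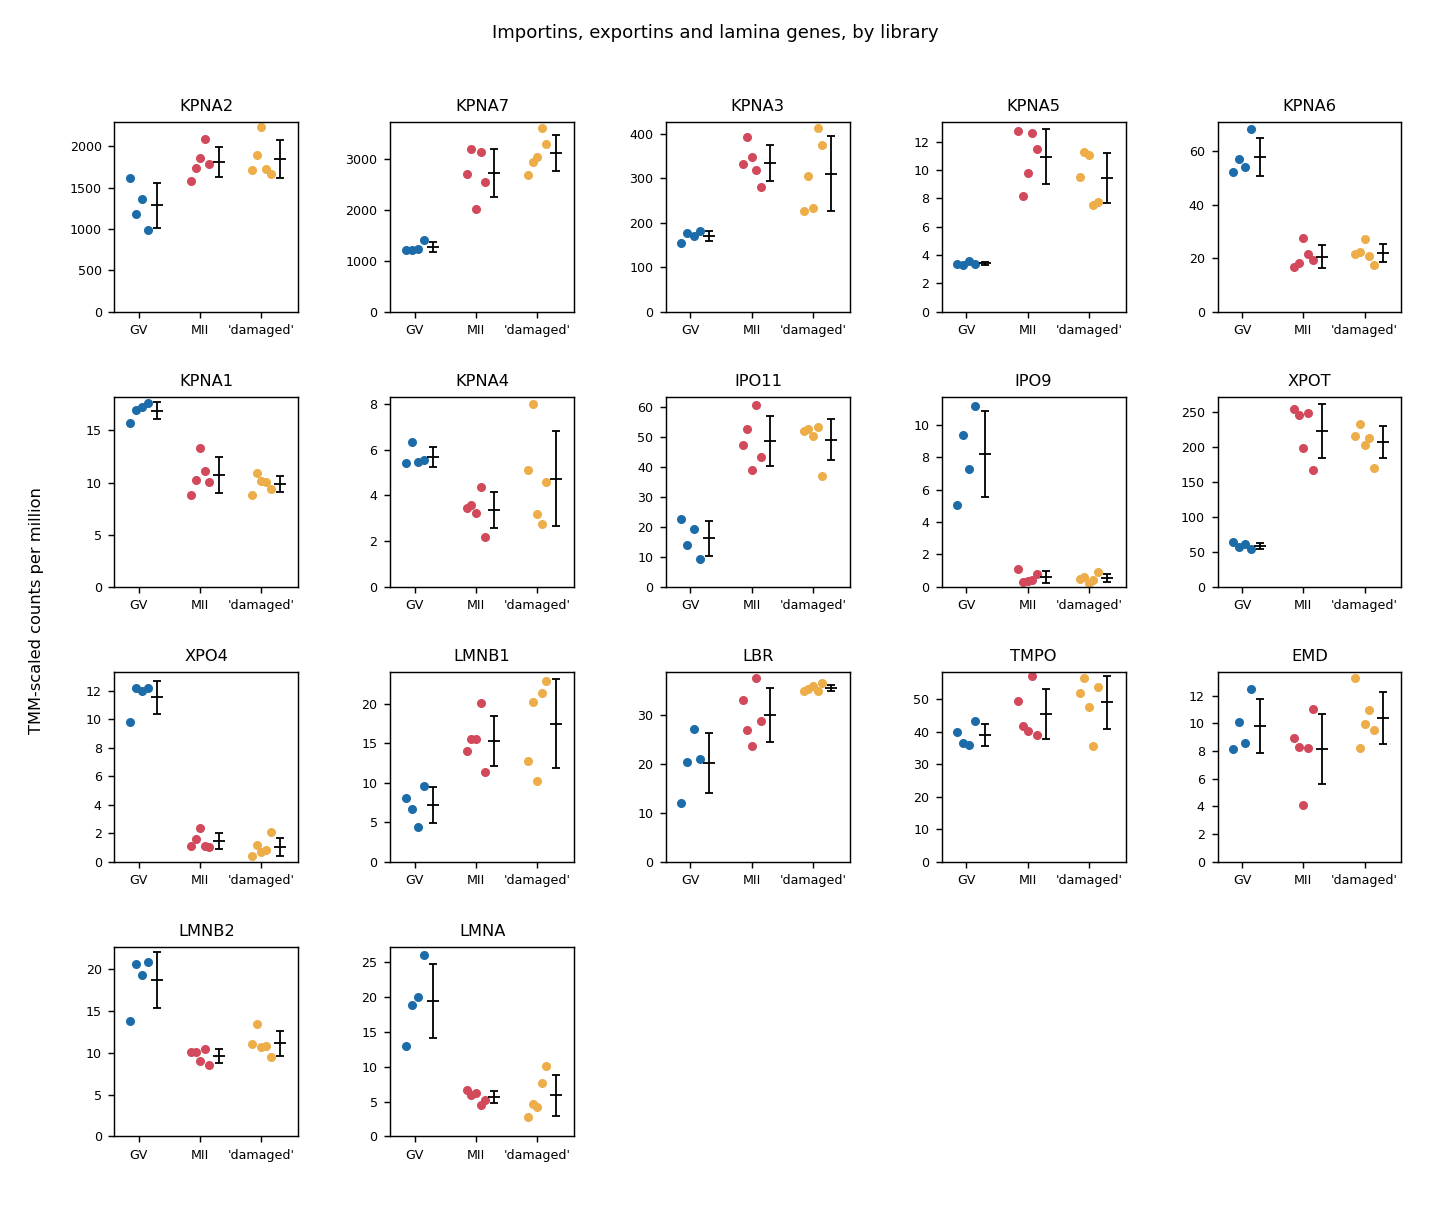
TMM-scaled CPM of 17 importin, exportin and lamina genes in each library, with a point per library and the mean ± SD beside the points, each axis starting at 0. KPNA6, KPNA1, IPO9, XPO4, LMNB2 and LMNA lie lower in MIX than in GV libraries and KPNA7, KPNA3, KPNA5, IPO11, XPOT and LMNB1 higher, while KPNA4, TMPO and EMD were not called. Without TMM, KPNA2 (−0.37), LBR (−0.14) and TMPO (−0.63) reverse sign.

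Genes that work beside the members were taken from a list of 39 further pore, transport and envelope genes, of which 37 had a row and 36 were tested. Of these 13 were upregulated, 15 were downregulated and 8 were not called, with a median log2 fold change of −0.42, beside a background of 30.0% up, 37.0% down and a median of −0.16 over all genes tested. Without TMM the list had 8 higher and 22 lower genes and a median of −1.30. TNPO1, the importer of many RNA-binding proteins, was at 149 to 211 CPM across GV libraries and 624 to 961 CPM across MIX libraries (log2 fold change 2.10, SE 0.13, FDR = 1.70e-11). RAE1, the mRNA export factor that binds NUP98, was at 217 to 257 CPM across GV libraries and 841 to 1157 CPM across MIX libraries (log2 fold change 2.09, SE 0.11, FDR = 1.50e-12). BANF1, which bridges chromatin and the inner membrane when the envelope reforms, was at 99.4 to 141 CPM across GV libraries and 393 to 561 CPM across MIX libraries (log2 fold change 2.01, SE 0.12, FDR = 1.28e-11). The libraries of GV and MIX oocytes did not overlap for any of these 3 genes.

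The largest falls were in AAAS, NXT1 and SYNE3. AAAS, the nucleoporin ALADIN, was at 57.0 to 134 CPM across GV libraries and 3.70 to 7.89 CPM across MIX libraries (log2 fold change −4.07, SE 0.20, FDR = 1.37e-12). NXT1, a subunit of the mRNA exporter, was at 1.82 to 2.99 CPM across GV libraries and 0.0524 to 0.374 CPM across MIX libraries (log2 fold change −3.997, SE 0.36, FDR = 4.94e-09). SYNE3, an outer nuclear membrane protein of the KASH family, was at 2.19 to 5.80 CPM across GV libraries and 0.115 to 0.788 CPM across MIX libraries (log2 fold change −3.17, SE 0.37, FDR = 2.00e-07). NXT1 and SYNE3 were scarce in MIX libraries, so the size of their fall is imprecise.

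MII and ‘damaged’ oocytes were also each compared with the same GV libraries. In MII oocytes 28 members were upregulated (background 28.2%) and 10 downregulated (background 34.2%), with 9 and 2 DEGs (background 4.51% and 17.1%). In ‘damaged’ oocytes 27 were upregulated (background 28.0%) and 12 downregulated (background 33.4%), with 7 and 2 DEGs (background 4.08% and 16.4%). The median log2 fold change of the members was 0.66 in MII and 0.75 in ‘damaged’ oocytes, beside −0.17 and −0.14 over all genes. Without TMM the split was 15 higher and 21 lower in MII and 15 higher and 23 lower in ‘damaged’ oocytes.

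The direct comparison of MII with ‘damaged’ oocytes asks whether members differ with the presence of a polar body. It takes the sample label of each transcript file as correct, which for some of these libraries a gene table column does not bear out. No member was called in limma-voom, edgeR or DESeq2, and 0.0% of all genes tested were called in limma-voom. No member had an unadjusted p under 0.05 in limma-voom, which for 49 members is near the share over all genes tested (1.47%, 194 genes). That share is below the fraction of 0.05 that such a test gives without any difference, so the fit without a block may be too cautious here. With the replicate block 353 genes had an unadjusted p under 0.05 and the lowest FDR was 0.0235, still with 0 genes called. Intervals and p-values of single members are from the fit without the block. With only the 8 libraries whose gene table column matched their label, 0 of 13849 genes were called. Of the 49 members 39 differed by less than 0.2 in log2 and 45 had a 95% confidence interval within 1 of 0, while 28 had one within 0.5. A smaller difference was therefore not detectable for many members, and a missing call does not show that the groups are alike.

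EMD had the smallest p, with a log2 difference (MII over ‘damaged’) of −0.39 with a 95% confidence interval of −0.87 to 0.08 and an unadjusted p = 0.1. It was at 8.96, 8.25, 4.12, 8.24 and 11.07 CPM in MII and 13.3, 8.19, 9.95, 10.98 and 9.54 CPM in ‘damaged’ libraries, and the ranges overlapped. KPNA7 followed with −0.20 with a 95% confidence interval of −0.47 to 0.06 and an unadjusted p = 0.126. XPO4 came next with 0.58 with a 95% confidence interval of −0.20 to 1.37 and an unadjusted p = 0.135, the widest of these 3 intervals. For the Y complex the differences were between −0.04 and 0.15, and for the lamina group between −0.39 and 0.06.

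**Figure D4:**
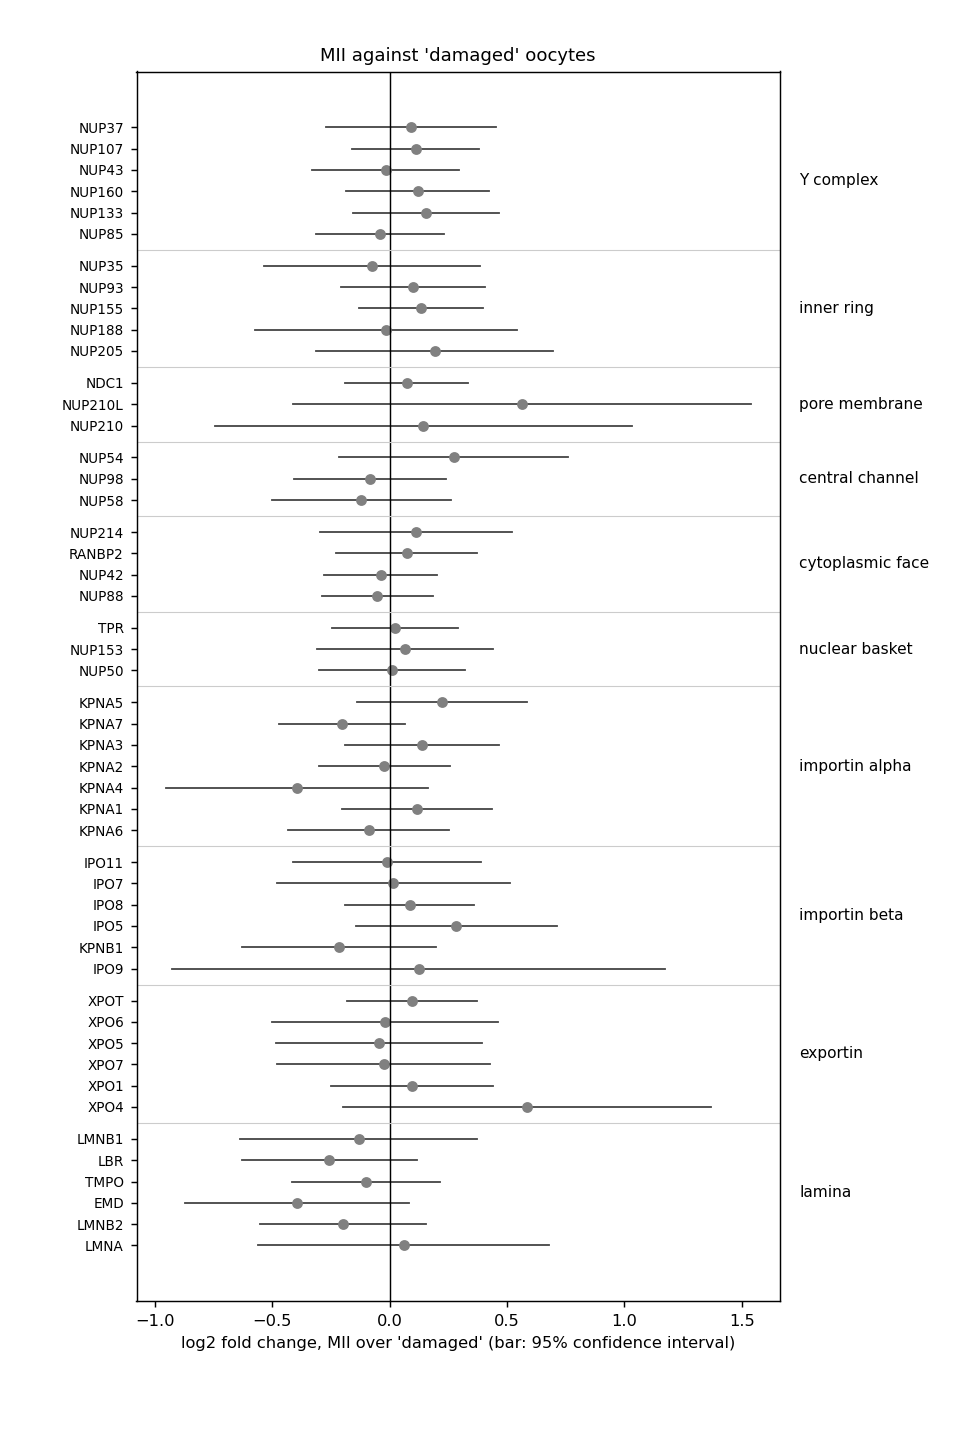
Log2 fold change of MII over ‘damaged’ oocytes for the 49 tested members in the order of the MIX and GV comparison, with points for the estimates and bars for 95% confidence intervals. Every bar includes 0, and the estimates run from −0.40 (KPNA4) to 0.58 (XPO4).

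Transcript usage was then examined in the 39 members with at least 2 transcripts tested (114 transcripts). A transcript was called when its relative use differed at FDR under 0.01 in limma diffSplice and its share of the gene's TPM by over 10 percentage points. In 18 members (46.2%) at least 1 transcript was called, against a background of 43.1% of 5304 genes, so the members were near the background. The 42 called transcripts were split into 21 with a higher and 21 with a lower share in MIX. The call did not require the test and the share to point the same way. For RANBP2 transcript ENSSSCT00000008913.5 they differed, with a relative log2 fold change of 5.04 and a share difference of −11.8 percentage points. The leading transcript differed between GV and MIX in 16 members, 41.0% against 30.7% of all genes, and in 12 of them with a call, of which 6 had a longer and 6 a shorter leading transcript in MIX. A gene-level call was present in 14 of the 18 members and absent in 4 (NUP153, NUP188, EMD and TMPO), all of which were called lower without TMM. Single-end reads give such shares by estimation, and their estimation error was not measured.

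NUP153 had the largest shift. Transcript ENSSSCT00000025406.4 took 76.3, 96.5, 92.3 and 98.6% of its TPM in GV libraries 1, 2, 4 and 5, 17.2, 9.85, 22.9, 12.7 and 18.0% in the MII libraries and 13.8, 23.4, 36.9, 14.8 and 24.4% in the ‘damaged’ libraries. The other leading transcript, ENSSSCT00000047490.3, went the opposite way, with 8.67% of the gene's TPM in GV and 78.3% in MIX oocytes (FDR = 5.02e-12). Neither transcript's ranges overlapped, while the gene's total was not called with TMM. NUP188 was alike in kind. Its transcript ENSSSCT00000006230.5 took 80.1, 76.6, 73.5 and 92.5% in GV and 0 to 30.9% in MIX libraries, with 80.7% of the gene's TPM in GV and 9.33% in MIX oocytes (FDR = 7.95e-07), although it had at most 29.4 estimated counts in a MIX library.

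NUP85 moved from several transcripts to 1. Transcript ENSSSCT00000018732.5 held 44.8, 1.19e-05, 25.5 and 33.8% in GV libraries 1, 2, 4 and 5 and 92.3 to 98.7% in MIX libraries, with 26.0% of the gene's TPM in GV and 95.01% in MIX oocytes (FDR = 2.72e-06). Transcript ENSSSCT00000070008.2, at 13.4 to 48.2% in GV, was listed at 0 in all 10 MIX libraries. Of the GV libraries, library 2 alone had the first transcript near 0. In the lamina group, EMD transcript ENSSSCT00000061400.3 had 51.8% of the gene's TPM in GV and 99.3% in MIX oocytes (FDR = 6.15e-09), and TMPO transcript ENSSSCT00000065023.3 had 71.0% of the gene's TPM in GV and 99.6% in MIX oocytes (FDR = 1.28e-09). LMNA transcript ENSSSCT00000101850.1 fell, with 45.5% of the gene's TPM in GV and 8.56% in MIX oocytes (FDR = 1.79e-04). It had only 2.97 to 14.5 estimated counts in the MIX libraries, so its share there is imprecise. For EMD and TMPO the gene's total was not called with TMM.

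**Figure D5:**
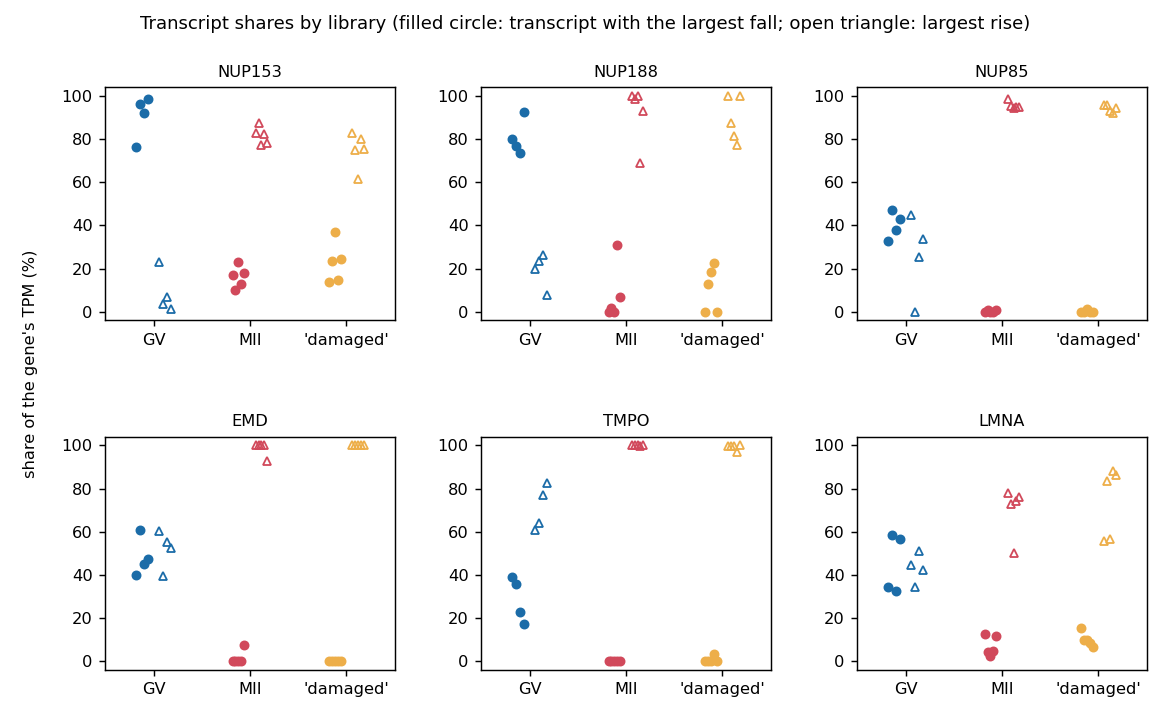
Share of the gene's TPM (percent) held by a transcript in each library for 6 members, with filled circles for the called transcript with the largest fall and open triangles for the one with the largest rise from GV to MIX. GV libraries lie apart from MII and ‘damaged’ libraries for both transcripts in each panel except the rising LMNA transcript, whose GV and MIX shares (34.4 to 51.1% and 50.1 to 87.97%) overlap.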

How the data were processed

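RNAseq of 15 pig oocyte libraries was used, with 5 libraries per group. The authors trimmed reads with AfterQC and estimated counts, TPM and effective lengths per transcript with Kallisto (version 0.43 per the submitters' processing notes, Ensembl cDNA of Sscrofa11.1), and these deposited estimated counts are not normalized across libraries. The deposited TPM values are scaled to 1 total within each library. The authors also deposited a gene table of counts that tximport had summed and scaled by length (lengthScaledTPM), and 7 of its 15 columns, whose totals fit a differently labelled library, were left unused.

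The 8 agreeing columns served to match transcripts to genes. Matching found 17880 genes, including all 13649 with at least 10 counts in 2 or more of these columns, with a difference of at most 8.61e-06% from the deposited counts. With this map the transcript files gave gene counts for each library. Symbols came from the gene name table and positions from RefSeq Sscrofa11.1 (51 of 52 members, all but RANBP2, with NUP42 found there as NUPL2).

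Tests were run in limma 3.58.1 (voom, TMM, filterByExpr with a minimum count of 10) on 14 libraries in a single fit of 3 groups, with FDR by Benjamini-Hochberg over all 13229 genes tested. GV library 3, with 6400412 counts, was left out. The study likewise removed its shallowest GV library. edgeR 4.0.16, DESeq2 1.42.0 (on rounded counts), library sizes without TMM, other filters, summed estimated counts, a replicate block and leaving out each library were alternatives. Transcript usage was tested with diffSplice in place of the study's DEXSeq. Confidence intervals are at 95% and cover the spread between libraries, which held 11961151 to 23568633 counts among those fitted. The study describes independent collections that each gave oocytes of every group. The labels do not say that equal replicate numbers mark 1 collection, and p-values measure the spread between libraries. On simulated data for MIX against GV oocytes (13073 genes), 200 of 200 genes changed by 3 in log2 were recovered with 3 false calls, and 156 of 200 changed by 1 with 2. For MII against ‘damaged’ oocytes (13047 genes), 139 of 200 genes changed by 1 were recovered with 0 false calls. The simulation gave all genes the same spread, balanced rises and falls, and no shift between groups. It therefore does not test the scaling on which many calls here depend.

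The members and gene lists were chosen with earlier results of these data known. Named by rule were all importin alpha and lamina genes, the member with the largest rise and the one with the largest fall (or smallest rise) of each other role, the 3 members with the smallest p between MII and ‘damaged’ oocytes, the 3 with the largest transcript shift, and of the other pathway genes the 3 largest rises and falls without overlap. Other members are given by count or fold change. Strand was not used by the authors' counting as far as stated, so overlapping antisense RNA cannot be told apart.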

Additional observations from a re-analysis of the deposited data

Results flagged for a closer look

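In 93 groups of named members (31 members in 3 groups), 6 had a library that stood apart from the others by Dixon's test at 95%, where chance alone gives about 1 in 20 groups, or 4.65. In GV oocytes, KPNA7 was at 1417 CPM in library 5 beside 1209.9 to 1222 CPM in the other GV libraries, and KPNA4 was at 6.33 CPM in library 2 beside 5.43 to 5.54 CPM. NUP88 was at 142 CPM in GV library 2 beside 176 to 182 CPM, and XPO4 was at 9.82 CPM in GV library 1 beside 11.97 to 12.2 CPM. NUP188 was at 12.5 CPM in MII library 3 beside 4.81 to 6.60 CPM in the other MII libraries, and IPO11 was at 36.8 CPM in ‘damaged’ library 5 beside 50.4 to 53.1 CPM. The 6 values are spread over 5 libraries, and GV library 2 holds 2 of them.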

How the results depend on the processing

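Library sizes without TMM factors moved the counts of changed members, to 15 higher and 23 lower in MIX against GV, 15 higher and 21 lower in MII against GV, and 15 higher and 23 lower in ‘damaged’ against GV oocytes. This scaling turned the sign of KPNA2 (−0.37), LBR (−0.14), NUP85 (−0.14), NUP155 (−0.22), NUP98 (−0.18), IPO8 (−0.44) and TMPO (−0.63). TMPO, not called before, also turned with the filter of 10 CPM (−0.058). EMD, not called either, turned with summed estimated counts (0.13) and, leaving out libraries in turn, ran from −0.19 to 0.011, the last without GV library 5. The other counts kept within 1.5 times of those reported. Leaving out each library gave 39 to 42 changed members in MIX, 35 to 40 in MII and 37 to 40 in ‘damaged’ oocytes against GV, 0 in MII against ‘damaged’ oocytes, and 17 to 22 members with changed transcript usage. Calls of LBR (0.49, FDR = 0.0566) and NUP205 (−0.66, FDR = 0.0605) were lost with only the 8 libraries whose gene table column agreed, a choice made after seeing the data. With the replicate block 41 members changed in MIX, 38 in MII and 39 in ‘damaged’ oocytes against GV, 0 in MII against ‘damaged’, and 21 in transcript usage, and NUP188 was called (−0.73, FDR = 0.00748). Libraries were not treated as paired, since no label ties a replicate number to a collection and 3 of 13 same-numbered pairs had a correlation of deviations over 0.1 (from −0.10 to 0.32). Their median was 0.068, beside −0.010 for other pairs, and 9 of 14 libraries correlated best with their own number. The study describes collections shared by the groups, and these values hint that equal numbers mark them, which no label states. Calls on low members (NUP210, IPO9, XPO4) rest on few counts in MIX libraries.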
